A study of Mus musculus with 12 samples.

Results

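The genes of fatty acid uptake and mitochondrial fatty acid oxidation were followed in the heart muscle of mice that had been operated on, with a sham procedure in some and a myocardial infarction (MI) induced in the others. The set holds 32 named genes, taken by gene symbol from a table of 33641 symbols with the values of each gene's transcripts added together. All 32 were among the 13158 genes with at least 1 TPM (transcript abundance by length, given as a share of the library) in at least 3 of the 12 samples. They were grouped by role into 9 groups that run from uptake and activation to the uncoupling proteins.

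RNA was measured by stranded mRNA sequencing in myocardium from 12 male C57BL/6 wild-type mice about 16 weeks old, in 4 groups of 3. The groups were sham surgery with vehicle, sham surgery with prednisone, MI with vehicle and MI with prednisone. Prednisone, a synthetic glucocorticoid, was injected into the peritoneum weekly at 1 mg/kg at lights-on for 6 weeks, beginning 2 weeks after the operation, per the labels' protocols. The hearts were collected 24 hours after the final dose. Every prednisone dose was diluted in saline from a stock in DMSO; the labels name the control injection only as vehicle, and they do not say which region of the heart was sampled relative to the infarct. In these bulk samples, fewer cells of a type and less RNA per cell cannot be told apart.

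Fatty acids are the main fuel of the adult heart. They are carried into the cardiomyocyte, bound by a cytosolic binding protein, activated to acyl-CoA, passed into mitochondria as carnitine esters and shortened in a repeating spiral whose electrons reach the respiratory chain through electron transfer flavoprotein. Entry is held back by malonyl-CoA, which blocks carnitine palmitoyltransferase 1. Many genes of the pathway are known targets of PPAR alpha and estrogen-related receptors, which bind DNA at hexamers of the AGGTCA type, and the glucocorticoid receptor binds a palindrome of a different hexamer.

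Promoters of 26 of the 32 genes were found in RefSeq (29 promoters of 300 bases, 250 before and 50 after each start, build GRCm38.p6). The promoters of Acadm, Ucp3 and Cpt1a are shown because these genes had some of the largest differences described below and each window holds the hexamer. Acadm lies on chromosome 3, and its window is chr3:153944594-153944893 on the minus strand. The Ucp3 window is chr7:100472741-100473040 on the plus strand, a little upstream of its neighbour Ucp2 on the same strand of chromosome 7. The Cpt1a window is chr19:3323051-3323350 on the plus strand. Capitals mark AGGTCA or, where the hexamer is on the other strand, its complement TGACCT.
Acadm: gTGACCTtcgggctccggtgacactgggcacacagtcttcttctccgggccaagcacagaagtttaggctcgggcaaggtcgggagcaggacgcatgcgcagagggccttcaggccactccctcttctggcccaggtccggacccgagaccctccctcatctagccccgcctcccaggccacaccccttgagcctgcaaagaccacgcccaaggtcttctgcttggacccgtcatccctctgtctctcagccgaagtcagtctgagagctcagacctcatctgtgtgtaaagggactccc
Ucp3: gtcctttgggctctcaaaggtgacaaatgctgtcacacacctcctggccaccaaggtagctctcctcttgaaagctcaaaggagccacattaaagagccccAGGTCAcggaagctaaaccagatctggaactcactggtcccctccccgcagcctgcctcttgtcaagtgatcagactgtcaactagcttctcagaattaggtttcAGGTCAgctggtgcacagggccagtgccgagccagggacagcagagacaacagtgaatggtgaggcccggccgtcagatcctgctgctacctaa
Cpt1a: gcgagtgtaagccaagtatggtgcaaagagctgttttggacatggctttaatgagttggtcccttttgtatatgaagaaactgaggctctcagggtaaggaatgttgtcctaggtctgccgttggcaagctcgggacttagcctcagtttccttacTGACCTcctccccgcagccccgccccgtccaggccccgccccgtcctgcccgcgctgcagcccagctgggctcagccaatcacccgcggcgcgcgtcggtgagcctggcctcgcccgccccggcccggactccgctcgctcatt

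The hexamer AGGTCA, searched on both strands, was present in 6 of the 29 promoters (20.7%), those of Cpt1a, Acacb, Acadvl, Acadm, Echs1 and Ucp3, against 16.3% of 32851 promoters of the same length. The Ucp3 window held it at positions 102 and 207 counted from its first base. A direct repeat of the hexamer with 1 base between its copies (DR1) was in none of the 29 and in 0.0396% of all promoters, the extended element TCAAGGTCA in none and in 0.423%, and the glucocorticoid palindrome, AGAACA and TGTTCT with 3 bases between them, in none and in 0.00913%. The E-box CACGTG, bound by clock factors, was in 1 promoter, of Slc27a1, against 7.15% of all. The D-box TTATGTAA was in none, against 0.938%. DR1 and TCAAGGTCA contain the hexamer and were counted separately from it. A match is a run of letters and not a measured binding site.

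Some properties of the libraries touch every value below. Mitochondrially encoded RNA took 24.6 and 21.6% of MI prednisone replicates 1 and 2 and 23.1% of MI vehicle replicate 3, and 32.4 to 42.0% of the other 9 libraries. Its part in the results was not tested. The 32 genes together took 0.828 to 1.15% of a library. TPM carries no read depth, so precision rests on the spread between mice. MI vehicle replicate 3 stood apart, with 14307 genes at 1 TPM or more against 11690 to 12772 in the other 11 libraries, the lowest median-ratio rescaling factor (0.609, against 0.886 to 1.15) and, among adipocyte markers, 177 TPM of Adipoq. Expression of all genes was not centred between groups on the deposited scale: the median log2 change over all tested genes was 0.39 for MI against sham with vehicle, -0.06 for MI against sham with prednisone, -0.41 for prednisone against vehicle in MI, 0.07 for the same in sham and -0.48 for the interaction. Each comparison is therefore given on the deposited scale and, where the call differs, after median-ratio rescaling, which brings these medians to between -0.02 and 0.03.

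The tissue label was checked against markers fixed by name. The 8 cardiomyocyte markers were present in every library, with a summed level of 31880 to 33670 TPM in sham vehicle, 32830 to 37850 in sham prednisone, 22580 to 28270 in MI vehicle and 32670 to 35380 in MI prednisone. Myl2 was the largest part of this sum, at 13890, 15610 and 12440 TPM in MI prednisone and 11720, 11290 and 11900 TPM in sham vehicle. In MI prednisone Myl2 and Tnnt2 were above every sham vehicle heart, and Myh6, Ryr2 and Pln were below every one. Actc1, Tnni3 and Ttn overlapped sham vehicle. No marker on any list was at 0 in any library. The 6 fibroblast markers summed to 360 to 485 TPM in sham vehicle, 410 to 490 in sham prednisone, 825 to 1015 in MI vehicle and 285 to 483 in MI prednisone. The 5 macrophage markers summed to 219 to 323, 258 to 342, 508 to 1195 and 250 to 474 TPM in the same order. The 4 atrial markers (Myl7, Myl4, Sln and Nppa) summed to 845 to 2487, 1982 to 2686, 2802 to 4106 and 4335 to 6173 TPM, so that every MI prednisone heart lay above every other heart. Most of the MI vehicle sum was Nppa, at 2050, 2840 and 3228 TPM, while Myl7, Myl4 and Sln overlapped sham vehicle there. In MI prednisone Myl7, Myl4 and Sln were above every other heart, and Nppa overlapped MI vehicle. The 6 adipocyte markers ranged from 8.86 to 141 TPM in sham vehicle, 32.4 to 45.3 in sham prednisone, 4.77 to 592 in MI vehicle and 81.6 to 325 in MI prednisone.

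**Figure D1:**
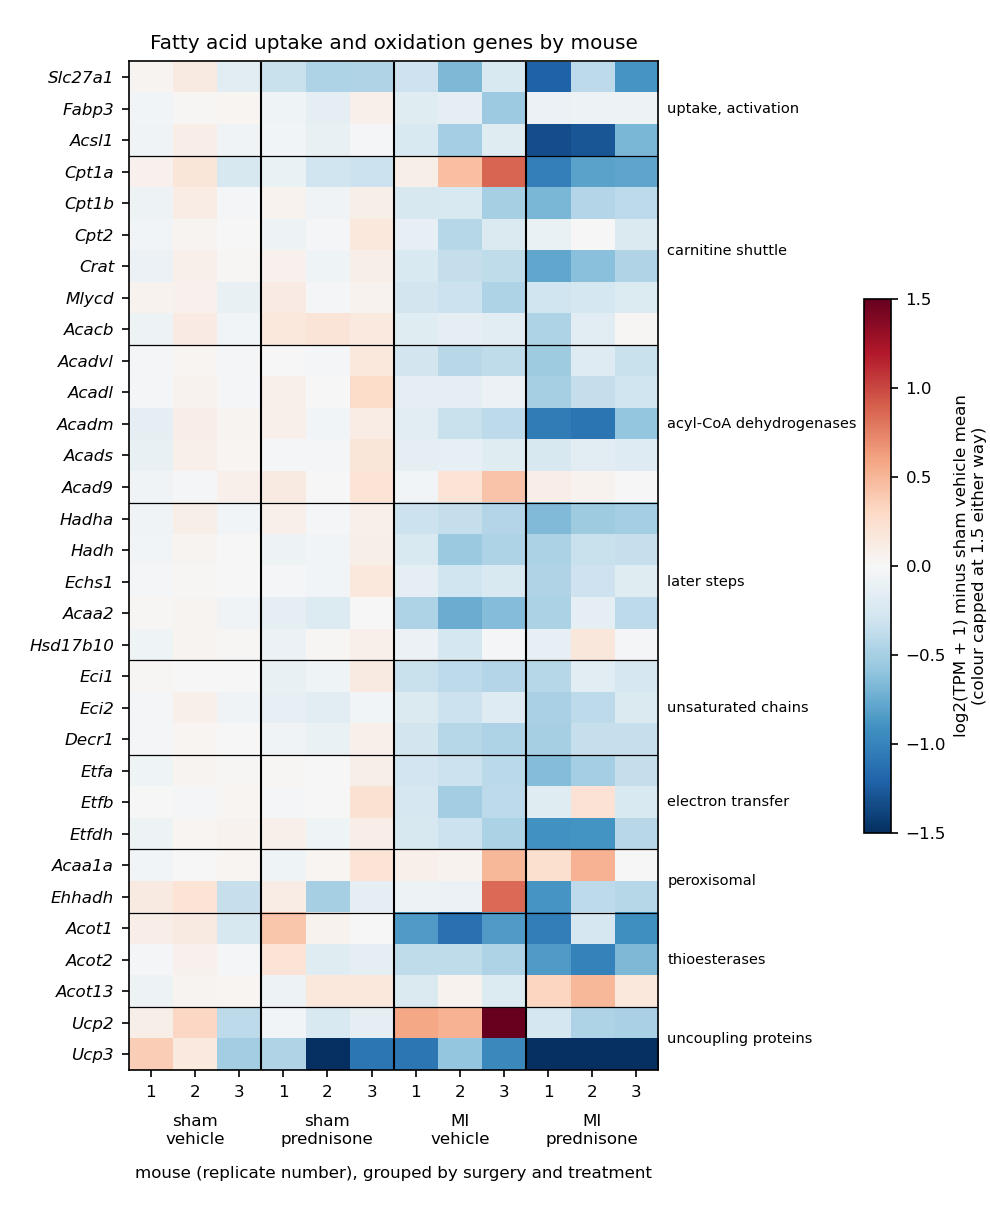
Each row is a gene and each column a mouse; colour is log2(TPM + 1) minus the mean of the 3 sham vehicle mice, capped at 1.5 either way. Most rows are below the sham vehicle mean in both MI groups, Ucp2 and Cpt1a are highest in MI vehicle replicate 3, and Acsl1, Acadm and Etfdh are lowest in MI prednisone replicates 1 and 2.

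In sham vehicle hearts the group means ran from 4.96 TPM for Ehhadh, the bifunctional enzyme of peroxisomal oxidation, to 4262 ± 96.2 TPM (SD, n = 3) for Fabp3, the heart fatty acid binding protein, with a median over the 32 genes of 154 TPM. The median was 155 TPM in sham prednisone, 153 in MI vehicle and 107 in MI prednisone. This median of group means does not follow the changes of single genes, of which 27 of 32 were negative in MI against sham with vehicle. The summed TPM of the 32 genes was 10525 to 11092 in sham vehicle and 10219 to 11537 in sham prednisone. It was 8281 to 9314 in MI vehicle and 8614 to 9306 in MI prednisone, which overlapped. TPM is scaled by transcript length, so levels of different genes can be set side by side. Etfb at 682 ± 14.1 TPM and Acadm at 671 ± 56.3 TPM (SD, n = 3 each) were the next most abundant in sham vehicle and did not differ beyond their spread. Cpt1b, the muscle form of carnitine palmitoyltransferase 1, was at 207 ± 14.0 TPM and Cpt1a, the liver form, at 14.2 ± 2.23 TPM in the same hearts.

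MI against sham in vehicle-treated mice asks how the pathway stood after infarction without drug. With vehicle, 10 of the 32 genes fell in MI (adjusted p under 0.05, limma) where 0.904% of all tested genes were called lower, and 1 rose where 15.1% of all genes were called higher. The median log2 change of the 32 genes was -0.32, beside 0.39 for all genes. The values of the 3 MI hearts lay below those of all 3 sham hearts for 25 of the 32, against 4.17% of all tested genes. After rescaling, 22 genes were called lower and none higher, with a median of -0.76, where 3.76% of all genes were called lower and 3.77% higher. All 10 genes that fell on the deposited scale were also called lower after rescaling.

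The genes that fell were spread over 6 of the 9 role groups. Among the later steps of the spiral, Acaa2, the mitochondrial 3-ketoacyl-CoA thiolase, was at 535, 541 and 508 TPM in sham vehicle and at 382, 314 and 335 TPM in MI vehicle. All 3 MI hearts were below all 3 sham hearts, and the log2 change was -0.62 (SE 0.11, adjusted p = 0.0108). Hadha, the alpha subunit of the trifunctional protein for long chains, was at 496, 547 and 502 TPM in sham and 412, 403 and 378 TPM in MI. It fell by 0.37 (SE 0.08, adjusted p = 0.0206) with no overlap. Hadh, the short-chain hydroxyacyl-CoA dehydrogenase, fell by 0.41, while Echs1, the short-chain hydratase, at -0.23 and Hsd17b10 at -0.13 did not pass the test on the deposited scale. After rescaling both were called lower, at -0.67 (adjusted p = 0.0398) and -0.57 (adjusted p = 0.0351).

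Of the 5 acyl-CoA dehydrogenases, which open each round of the spiral, Acadvl for very long chains fell by 0.36. Acadm for medium chains was at 608, 718 and 687 TPM in sham and 596, 529 and 508 TPM in MI; every MI value was below every sham value, but the log2 change of -0.30 (SE 0.14) had an adjusted p of 0.12. Acadl was at -0.12, Acads at -0.14 and Acad9, which also serves assembly of respiratory complex I, at 0.19, none of them called on the deposited scale. After rescaling Acadl at -0.56 and Acads at -0.58 were called lower (adjusted p = 0.046 each), and Acadm at -0.74 (adjusted p = 0.0628) and Acad9 at -0.23 were not. Both Eci1 and Decr1, which let unsaturated chains enter the spiral, fell by 0.39, and Eci2 at -0.24 was called lower only after rescaling, at -0.68 (adjusted p = 0.0299). Of the electron transfer genes, Etfa fell by 0.34, and Etfb at -0.39 and Etfdh at -0.35 were not called on the deposited scale (adjusted p = 0.0588 and 0.0791). After rescaling Etfb was called lower at -0.83 (adjusted p = 0.0304), and Etfdh at -0.79 was not (adjusted p = 0.0528).

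In the carnitine shuttle and its control, Mlycd, which breaks down malonyl-CoA, fell by 0.35. Its counterpart Acacb, which makes malonyl-CoA at the mitochondrion, was at -0.16 and not called. Cpt1b was at 196, 223 and 203 TPM in sham and 175, 177 and 146 TPM in MI, a log2 change of -0.32 (SE 0.11, adjusted p = 0.0653) that was called only after rescaling, at -0.76 (adjusted p = 0.0448). Cpt1a was at 14.7, 16.1 and 11.7 TPM in sham and 15.0, 19.5 and 26.5 TPM in MI, and the groups overlapped (log2 change 0.47, adjusted p = 0.0909). The other shuttle enzymes, Cpt2 at -0.26 and Crat, which buffers acetyl-CoA as acetylcarnitine, at -0.32, were not called on the deposited scale and were called lower after rescaling, at -0.69 (adjusted p = 0.0304) and -0.76 (adjusted p = 0.0343). In the uptake group, the transporter Slc27a1 at -0.40, Fabp3 at -0.29 and the acyl-CoA synthetase Acsl1 at -0.31 were not called on the deposited scale. After rescaling Slc27a1 at -0.84 and Acsl1 at -0.75 were called lower (adjusted p = 0.0307 and 0.0451), and Fabp3 at -0.73 was not (adjusted p = 0.0756).

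The thioesterases, which release fatty acids from CoA, held the lowest log2 change of the set. Acot1 was at 12.8, 13.1 and 9.88 TPM in sham and 6.14, 4.90 and 6.14 TPM in MI, and it fell by 0.94 (SE 0.21, adjusted p = 0.0199). Acot2 fell by 0.40, and Acot13 at -0.13 was not called. Acot1 and Acot2 are neighbouring near-identical copies on chromosome 12, so reads may have been split between them and their separate values are uncertain; Acaa1a has such a copy too. The peroxisomal genes Acaa1a at 0.21 and Ehhadh at 0.23 were not called.

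The uncoupling proteins are carriers of the mitochondrial inner membrane. Ucp2 was at 85.0, 99.2 and 60.5 TPM in sham and 120, 115 and 291 TPM in MI, and it rose by 0.99 (SE 0.30, adjusted p = 0.0482). The value of 291 TPM belongs to MI vehicle replicate 3, and the rise was not called after rescaling (0.55, adjusted p = 0.107). Of the 12 fits that left out 1 mouse it was called in 2, and not in the fit without MI vehicle replicate 3, where the log2 change was 0.55. Ucp3, the form of skeletal and cardiac muscle, was at 52.5, 45.0 and 28.0 TPM in sham and 18.5, 26.7 and 20.3 TPM in MI, with no overlap, a log2 change of -0.88 and an adjusted p of 0.062. After rescaling it was called lower at -1.30 (adjusted p = 0.0396). Within a library the ratio of Ucp2 to Ucp3 was 1.62, 2.21 and 2.16 in sham vehicle and 6.50, 4.31 and 14.4 in MI vehicle.

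In the same comparison all 6 fibroblast markers and all 5 macrophage markers were called higher, and 3 of 8 cardiomyocyte markers were called lower with a median log2 change of -0.46, beside -0.32 for the fatty acid genes. Of the other lists, 3 of 4 endothelial, 2 of 3 smooth muscle and 1 of 4 atrial markers were called higher, although the atrial median was -0.78, and no adipocyte marker was called. Their part in the fall was not tested. The calls depended on single mice: no gene was called in every one of the 12 fits that left out 1 mouse, and the number called ran from 0 (without sham vehicle replicate 1 or 3) and 1 (without sham vehicle replicate 2) through 4 (without MI vehicle replicate 2 or 3) to 18 (without MI vehicle replicate 1), while the median stayed between -0.36 and -0.28 in these fits. The share of all genes called in each of these fits is not given beside these counts. A correction for transcript length called 16 of the 27 genes with a known length lower, where 2.67% of all genes with a length were called lower.

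**Figure D2:**
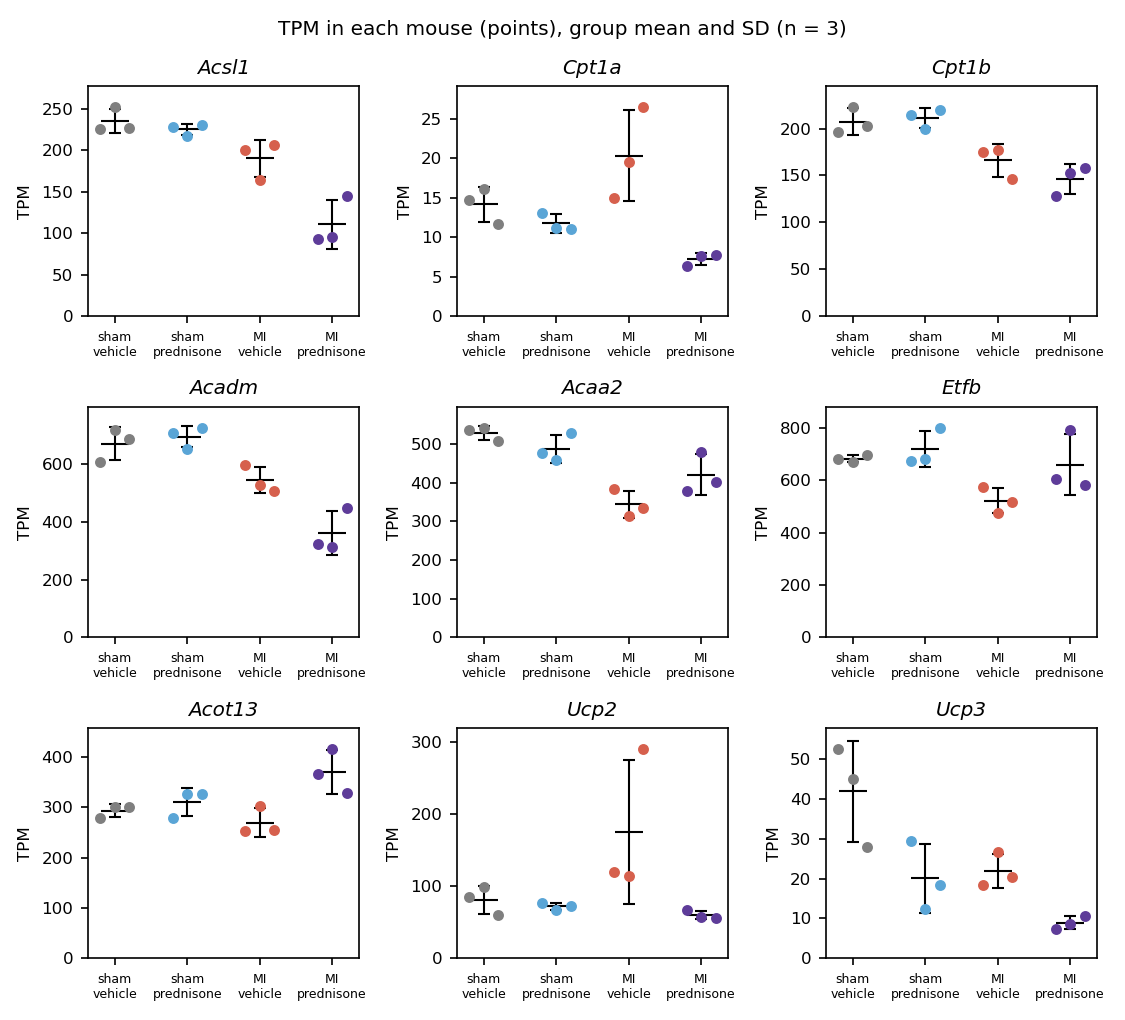
TPM of 9 genes in each mouse by group; points are mice, the horizontal tick is the group mean and the bar its SD (n = 3). Acaa2 is lowest in MI vehicle, Cpt1a and Ucp3 are lowest in MI prednisone, and MI vehicle replicate 3 lies far above the others for Ucp2.

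MI against sham in prednisone-treated mice repeats the surgery comparison under the drug. Of the 32 genes 17 fell and none rose, where 14.1% of all tested genes were called lower. The median log2 change was -0.37, beside -0.06 for all genes, and 22 of the 32 had all MI values below all sham values, against 32.2% of all tested genes. After rescaling 8 genes were called lower and none higher, where 14.3% of all genes were called lower and 11.7% higher. Those 8, Acsl1, Cpt1a, Crat, Acadm, Hadha, Etfdh, Acot1 and Acot2, were all among the 17. The falls of Cpt1b, Mlycd, Acadvl, Acadl, Hadh, Echs1, Decr1, Etfa and Ucp3 given below were called on the deposited scale only.

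Acsl1, which activates long-chain fatty acids at the outer mitochondrial membrane, was at 228, 217 and 230 TPM in sham prednisone and 92.5, 95.5 and 145 TPM in MI prednisone, and it fell by 1.04 (SE 0.16, adjusted p = 0.00232). Acadm was at 708, 653 and 725 TPM in sham and 322, 312 and 449 TPM in MI, and it fell by 0.96 (SE 0.14, adjusted p = 0.00202). For both genes the groups were far apart, and MI prednisone replicate 3 was the MI heart nearest to sham. Etfdh, the ubiquinone oxidoreductase that takes electrons from the flavoprotein, was at 285, 258 and 291 TPM in sham and 144, 145 and 202 TPM in MI, and fell by 0.78 (SE 0.13, adjusted p = 0.00359). Etfa fell by 0.54, and Etfb at -0.14 was not called.

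The carnitine shuttle was called lower in 4 of its 6 genes. Crat fell by 0.65, Cpt1a by 0.63, Cpt1b by 0.53 and Mlycd by 0.30, while Cpt2 at -0.13 and Acacb at -0.37 were not called. Cpt1b was at 214, 200 and 220 TPM in sham prednisone and 128, 153 and 158 TPM in MI prednisone, without overlap. Among the dehydrogenases Acadl fell by 0.50 and Acadvl by 0.39, and Acads at -0.24 and Acad9 at -0.06 were not called.

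In the later steps, Hadha fell by 0.62 (SE 0.08, adjusted p = 0.00184), from 541, 509 and 544 TPM in sham to 325, 354 and 361 TPM in MI. Hadh fell by 0.37 and Echs1 by 0.35, and Decr1 of the unsaturated-chain enzymes by 0.37. The thiolase Acaa2, which had fallen with vehicle, was at 477, 457 and 527 TPM in sham prednisone and 379, 480 and 401 TPM in MI prednisone; the groups overlapped and the log2 change of -0.22 was not called (adjusted p = 0.22). Acot1 fell by 0.89 and Acot2 by 0.81 (SE 0.13, adjusted p = 0.0024), while Acot13 at 0.25 was not called. Ucp3 fell by 1.02 (SE 0.30, adjusted p = 0.038), from 29.4, 12.4 and 18.5 TPM to 7.39, 8.68 and 10.6 TPM, and Ucp2 at -0.26 was not called.

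In this comparison 3 of 8 cardiomyocyte markers were called lower, with a median of -0.37, and no fibroblast, macrophage, smooth muscle or adipocyte marker was called. The log2 changes of the cardiomyocyte markers ran from -1.44 to 0.14, with 5 negative and 3 positive. Of 4 endothelial markers 2 were called lower, and of 4 atrial markers 1 was called higher, with an atrial median of 0.75. Their part in the fall was not tested. Of the 17 genes 9 were called in every fit that left out 1 mouse: Acsl1, Cpt1b, Crat, Acadl, Acadm, Hadha, Etfa, Etfdh and Acot2. Among these, Cpt1b, Acadl and Etfa were not called after rescaling. The count dropped to 9 without sham prednisone replicate 1 or MI prednisone replicate 1 and to 10 without sham prednisone replicate 3. The share of all genes called in these fits is not given beside these counts, which can move with it. With length corrected, 5 of 27 genes were called lower, where 7.99% of all genes with a length were. When the most abundant transcript stood for the gene, Acsl1 and Crat lost their call, and the others of the 9 named genes kept it. That Acsl1 transcript was at 128, 125 and 135 TPM in sham prednisone and 90.3, 91.1 and 121 TPM in MI prednisone. Another, of 3429 bases, was at 96.1, 89.7 and 91.4 TPM in sham prednisone and 1.48, 1.91 and 21.0 TPM in MI prednisone. In a fit that kept replicate 3 as the only MI prednisone mouse, chosen after the transcript shares below were seen, 31 of 32 log2 changes were negative. Their median was -0.33, beside -0.13 for all genes. That fit assumes that the lone mouse varies like the other groups.

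**Figure D3:**
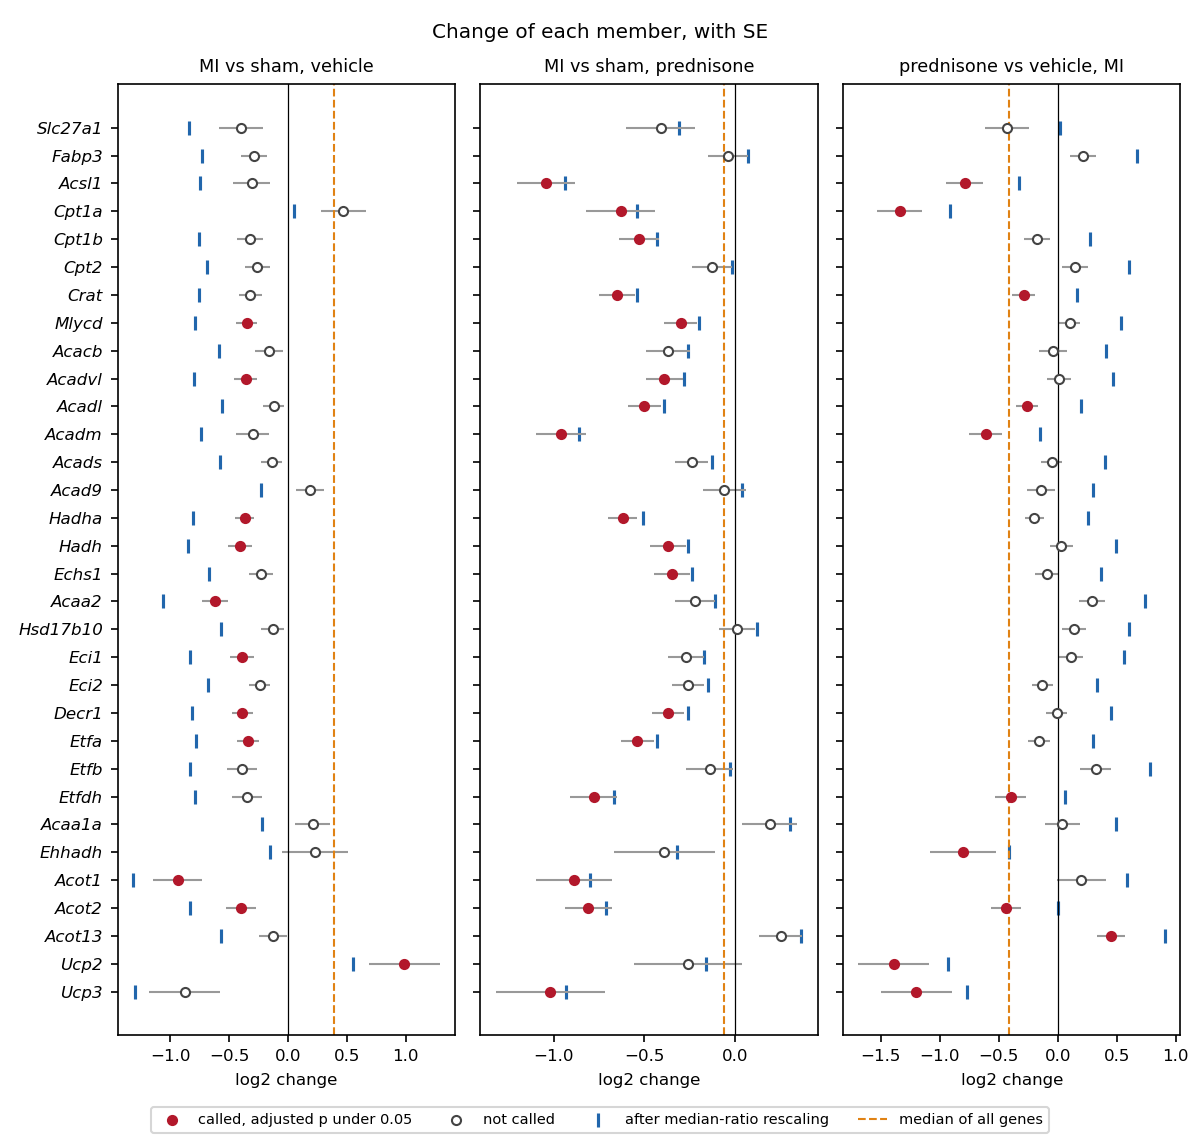
Log2 change of each gene with its SE in 3 comparisons (MI against sham with vehicle, MI against sham with prednisone, and prednisone against vehicle in MI). Filled points were called at an adjusted p under 0.05, blue ticks are the values after median-ratio rescaling, and the dashed line is the median of all genes (0.39, -0.06 and -0.41 from left to right).

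Prednisone against vehicle within MI asks what the drug changed in infarcted hearts. On the deposited scale 10 of the 32 genes fell, where 34.9% of all tested genes were called lower, and 1 rose, where 2.5% were called higher. The median log2 change of the 32 was -0.11 beside -0.41 for all genes, with the set's median above that of all genes. All 3 prednisone values were below all 3 vehicle values for 10 genes, against 42.6% of all tested genes. After rescaling the split turned: 8 genes were called higher and 2 lower, with a median of 0.35, where 14.6% of all genes were called higher and 14.2% lower. Only Cpt1a, Ucp2 and Acot13 were called on both scales, each in the same direction on both. With length corrected, Ucp2 kept its call and Acot13 lost it, and Cpt1a had no known length and could not be corrected. In a fit of only the groups compared, Cpt1a kept its call, and Ucp2 and Acot13 lost theirs.

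Cpt1a was at 15.0, 19.5 and 26.5 TPM in MI vehicle and 6.42, 7.63 and 7.73 TPM in MI prednisone. All 3 prednisone hearts were below all 3 vehicle hearts, and below every sham heart, of which the lowest was at 11.0 TPM. The log2 change was -1.34 (SE 0.19, adjusted p = 0.00108), and -0.91 after rescaling. Cpt1b, by contrast, was at 128, 153 and 158 TPM in MI prednisone and overlapped the vehicle hearts (log2 change -0.18, adjusted p = 0.209). The ratio of Cpt1b to Cpt1a within a library, which no scaling between libraries can move, was 11.6, 9.10 and 5.50 in MI vehicle and 19.9, 20.0 and 20.4 in MI prednisone, beside 13.4, 13.8 and 17.3 in sham vehicle and 16.3, 17.8 and 20.0 in sham prednisone. The MI vehicle ratios were below those of every other heart. The difference within MI was 1.27 on the log2 scale, with a two-sided exact permutation p of 0.1, the smallest that 3 against 3 mice can give, and 0.2 after adjustment over the 16 ratio tests made.

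**Figure D4:**
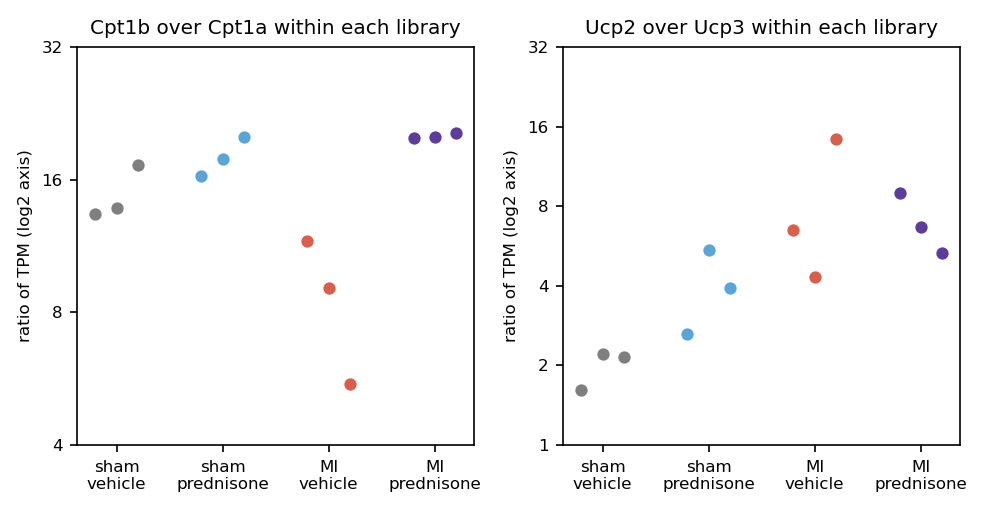
Ratio of Cpt1b to Cpt1a (left) and of Ucp2 to Ucp3 (right) within each library, on log2 axes; points are mice. The Cpt1b to Cpt1a ratio is lowest in the 3 MI vehicle mice, at 5.50 to 11.6, and the Ucp2 to Ucp3 ratio is lowest in the 3 sham vehicle mice, at 1.62 to 2.21.

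Both uncoupling proteins fell with prednisone in MI. Ucp2 was at 66.5, 57.8 and 56.6 TPM in MI prednisone, below all 3 MI vehicle hearts, with a log2 change of -1.39 (SE 0.30, adjusted p = 0.00581) and -0.93 after rescaling. Without MI vehicle replicate 3, the heart with the most Ucp2, the log2 change was -0.96 and still called. Ucp3 was at 7.39, 8.68 and 10.6 TPM in MI prednisone against 18.5 to 26.7 TPM in MI vehicle, and fell by 1.20 (SE 0.30, adjusted p = 0.0103), but its value of -0.77 after rescaling was not called (adjusted p = 0.0927). The ratio of Ucp2 to Ucp3 overlapped between these groups.

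Acot13, a small thioesterase of mitochondria, was the gene that rose. It was at 252, 303 and 254 TPM in MI vehicle and 366, 416 and 328 TPM in MI prednisone, without overlap, a log2 change of 0.45 (SE 0.12, adjusted p = 0.0118) and 0.91 after rescaling. The neighbouring role members Acot2, at -0.44, fell on the deposited scale only, and Acot1, at 0.20, was not called.

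Acsl1 fell by 0.79 (SE 0.16, adjusted p = 0.00416) and Acadm by 0.61 (SE 0.14, adjusted p = 0.00717) on the deposited scale. Neither was called after rescaling, at -0.33 and -0.15. Ehhadh at -0.80 (adjusted p = 0.0423) likewise fell on the deposited scale only. Crat at -0.29, Acadl at -0.26 and Etfdh at -0.40 were called lower on the deposited scale and stood at 0.16, 0.20 and 0.06 after rescaling, so their direction turned with the scale.

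The genes called higher after rescaling were Acot13, Etfb at 0.78, Acaa2 at 0.74, Cpt2 and Hsd17b10 at 0.60, Eci1 at 0.56, Mlycd at 0.54 and Acaa1a at 0.49. On the deposited scale Acaa2 was at 0.29 (adjusted p = 0.0652), with 382, 314 and 335 TPM in MI vehicle and 379, 480 and 401 TPM in MI prednisone. Etfb was at 0.32 (adjusted p = 0.0656), with 574, 476 and 518 TPM against 603, 794 and 581 TPM and no overlap. With length corrected, 3 of 27 genes were called higher and 1 lower, where 8.75% and 7.69% of all genes with a length were.

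In this comparison all 6 fibroblast markers and 4 of 5 macrophage markers were called lower, and 3 of 8 cardiomyocyte markers were called higher with a median of 0.32. The cardiomyocyte markers did not move together: 5 had a positive and 3 a negative log2 change, from -0.53 to 0.73. Of 4 atrial markers 3 were called higher, with a median of 2.01, and 2 of 4 endothelial and 2 of 3 smooth muscle markers were called lower. Their part in the changes was not tested. Acsl1, Cpt1a, Acadm, Acot13, Ucp2 and Ucp3 were called in every fit that left out 1 mouse, and the count was 6 without MI prednisone replicate 1 and 7 without MI prednisone replicate 2, sham vehicle replicate 2 or sham prednisone replicate 1. These counts can move with the number of all genes called, which is not given for these fits. With MI prednisone replicate 3 as the only mouse of its group no member was called, 4 of 32 had an unadjusted p under 0.05, and 2.3% of all genes were called lower; Ucp2 was then at -1.48, Cpt1a at -1.25, Acsl1 at -0.38, Acadm at -0.27 and Acot13 at 0.29.

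The MI prednisone libraries also differed from the rest in how TPM was divided among the transcripts of a gene, and several of the fatty acid genes were among those affected. Of 24 members with at least 2 transcripts and a mean of at least 5 TPM, 9 (37.5%) had a most abundant transcript whose share in the 3 MI prednisone mice lay outside the range of the other 9 libraries, against 26.7% of all such genes. The same count was 1 for sham vehicle (0.996% of all genes), 0 for sham prednisone (2.65%) and 1 for MI vehicle (1.84%). The 9 were Acsl1, Cpt2, Crat, Acacb, Acadl, Acadm, Eci2, Etfb and Ucp3.

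For Acadm, the transcript of 2047 bases took 70.9 to 81.8% of the gene's TPM in the other 9 libraries and 96.5, 94.7 and 86.7% in MI prednisone. A retained-intron transcript of 690 bases was at 87.8, 94.0 and 71.7 TPM in MI vehicle and 4.14, 4.02 and 46.7 TPM in MI prednisone. The 2047-base transcript itself was at 432, 381 and 360 TPM in MI vehicle and 311, 295 and 389 TPM in MI prednisone, overlapping, with a log2 change of -0.24 (adjusted p = 0.134 in a fit over transcripts). The fall of the summed gene in this comparison was thus larger than that of its main transcript.

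For Acsl1, the transcript of 3897 bases overlapped between the MI groups at 118, 97.6 and 135 TPM against 90.3, 91.1 and 121 TPM (log2 change -0.21, adjusted p = 0.264). Its transcript of 3429 bases went from 79.7, 63.2 and 63.6 TPM to 1.48, 1.91 and 21.0 TPM. In both genes the share of the main transcript was higher in MI prednisone, and the same held for Etfb, whose main transcript took 97.0, 97.2 and 92.1% there. The Etfb main transcript, of 893 bases, rose by 0.79 (adjusted p = 0.00159), from 386, 346 and 347 TPM to 585, 771 and 536 TPM, while one of 551 bases went from 170, 126 and 166 TPM to 10.3, 3.52 and 41.5 TPM.

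The summed level of Acacb overlapped, at 32.9, 33.8 and 33.7 TPM in MI vehicle and 27.0, 33.4 and 38.2 TPM in MI prednisone. A retained-intron transcript of 6680 bases took 81.7, 79.9 and 54.0% of it in MI prednisone, and at most 13.5% in the other libraries. The protein-coding Acacb transcript of 8788 bases went from 16.8, 18.1 and 17.6 TPM in MI vehicle to 2.71, 3.72 and 6.29 TPM in MI prednisone. Its log2 change was -1.88 (limma over transcripts, adjusted p = 0.000318). For the protein-coding transcript of 8482 bases the log2 change was -1.70 (limma over transcripts, adjusted p = 0.0174). A Cpt2 transcript of 1015 bases took 39.4, 37.2 and 10.1% in MI prednisone. For Etfdh, replicates 1 and 2 of MI prednisone gave 47.9 and 47.7% to a transcript of 2233 bases that took 0.286% in replicate 3. For Acsl1, Acadm, Etfb, Cpt2, Etfdh and Acacb, replicate 3 was the MI prednisone mouse nearest to the other groups. For Crat it was the farthest: the most abundant transcript took 76.1, 65.2 and 82.7% in MI prednisone and 55.1 to 61.8% in the other 9 libraries. Fabp3, Cpt1a, Acaa2, Eci1, Ehhadh, Acot1, Acot2 and Acot13 have a single transcript row each and could not show such a shift. In the fit with the most abundant transcript, Acsl1, Crat, Acadl and Acadm lost their call for prednisone in MI. Ehhadh, with its single row, lost its call too. Cpt1a, Etfdh, Acot2, Acot13, Ucp2 and Ucp3 kept theirs. Other genes, not called on their summed level, gained a call in this fit. Slc27a1 at -1.23, Acacb at -1.88, Hadha at -0.44 and Eci2 at -0.35 were called lower, and Etfb at 0.79 was called higher. Beyond this fit, whether the shift in shares bears on the gene-level values was not tested.

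**Figure D5:**
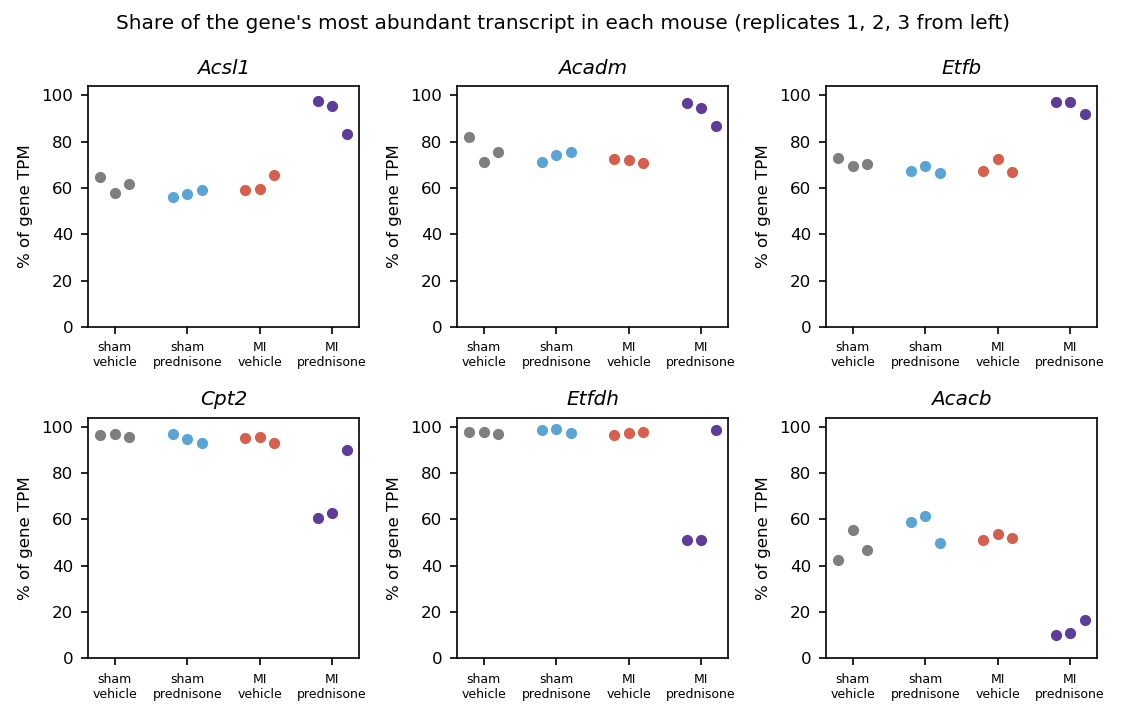
Share of a gene's summed TPM held by its most abundant transcript, in percent, for 6 genes in each mouse (replicates 1, 2 and 3 from left within a group). MI prednisone mice stand apart in all panels but Etfdh, where only replicates 1 and 2 do (50.9 and 51.1% against 98.7% in replicate 3).

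Prednisone against vehicle within sham asks what the drug did without infarction. No fatty acid gene passed the test, where 0.114% of all tested genes were called in either direction. By limma 1 gene, Ucp3, had an unadjusted p under 0.05, and 3 genes had after rescaling. The share of all genes under that threshold is not given beside these counts. Ucp3 was at 52.5, 45.0 and 28.0 TPM with vehicle and 29.4, 12.4 and 18.5 TPM with prednisone, which overlapped. Its log2 change was -1.06 (adjusted p = 0.882). Slc27a1, which imports and activates long chains, was at 66.4, 70.8 and 57.2 TPM with vehicle and 51.0, 46.5 and 47.1 TPM with prednisone, without overlap (log2 change -0.41, adjusted p = 1). The median over the 32 was 0.03, beside 0.07 for all genes. A difference that did not pass with 3 mice a group does not show that the levels were alike.

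The interaction tests whether the prednisone effect differed between MI and sham hearts. It was called lower for Acsl1 at -0.73 (SE 0.23, adjusted p = 0.0409), Cpt1a at -1.10 (SE 0.27, adjusted p = 0.0187) and Acadm at -0.66 (SE 0.20, adjusted p = 0.0365), where 20.7% of all tested genes were called lower. The prednisone effect in sham was -0.06 for Acsl1, -0.24 for Cpt1a and 0.05 for Acadm. The median over the 32 was -0.11 beside -0.48 for all genes. After rescaling none of these 3 was called, and 3 other genes were called higher, Acaa2 at 0.95 (adjusted p = 0.0387), Acot13 at 0.92 (adjusted p = 0.045) and Hsd17b10 at 0.69 (adjusted p = 0.0463), where 5.14% of all genes were called higher and 4.94% lower. No interaction of the 32 genes was called in every fit that left out 1 mouse, and Ucp2, at -1.25, was not called (adjusted p = 0.0572).

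Of 41 further genes of fatty acid transport and oxidation, 40 were tested. With vehicle, MI called 2 of the 40 higher and 3 lower, where 15.1% and 0.904% of all genes were called. With prednisone, MI called 10 lower and none higher, where 14.1% of all genes were called lower. Prednisone within MI called 2 higher and 11 lower of the 40, where 2.5% and 34.9% of all genes were called, and prednisone within sham called none. The interaction called 1 higher and 6 lower, where 20.7% of all genes were called lower. Their median log2 changes in that order were 0.18, -0.10, -0.16, 0.04 and -0.26, beside 0.39, -0.06, -0.41, 0.07 and -0.48 for all genes. After rescaling, the counts were 0 higher and 8 lower, 4 higher and 6 lower, 6 higher and 1 lower, none, and 3 higher and 0 lower. Of all genes, MI with vehicle then called 3.77% higher and 3.76% lower, and MI with prednisone 11.7% and 14.3%. Prednisone within MI called 14.6% of all genes higher and 14.2% lower, and the interaction 5.14% and 4.94%.

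Cd36, the main fatty acid translocase of cardiac muscle, was at 567, 578 and 560 TPM in MI vehicle and 265, 210 and 363 TPM in MI prednisone, beside 586 to 671 TPM in the 6 sham hearts. It fell by 1.06 with prednisone in MI (SE 0.16, adjusted p = 0.00124), and by 1.28 in MI against sham with prednisone; the first value was -0.60 and not called after rescaling, and the second was -1.18 and called. Ech1, a dienoyl-CoA isomerase, was at 1104, 1131 and 1091 TPM in sham vehicle, 789, 650 and 579 TPM in MI vehicle and 932, 1188 and 926 TPM in MI prednisone. It fell by 0.73 in MI with vehicle and rose by 0.60 with prednisone in MI, on both scales, but its most abundant transcript in the latter comparison was at -0.02. Acsl6, another acyl-CoA synthetase, fell by 0.61 and Hadhb, the beta subunit of the trifunctional protein, by 0.37 in MI with vehicle, where Acsl4 rose by 0.70 and the thioesterase Acot9 by 0.68. In MI against sham with prednisone, Lpl, which frees fatty acids from lipoproteins, fell by 0.65 and the peroxisomal transporter Abcd3 by 0.64. With prednisone in MI, Acsl4 fell by 0.88 and Acox3, a peroxisomal oxidase, by 0.67, while Acad12 rose by 0.45. After rescaling, the values of Acsl4 and Acot9 in MI with vehicle, of Lpl in MI with prednisone and of Acox3 with prednisone in MI were not called, and the others of these held their call; the most abundant transcript of Acad12 was at -0.20 with prednisone in MI.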

How the data were processed

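Polyadenylated RNA of 12 hearts was sequenced as stranded libraries, per the labels' protocols, and groups and replicate numbers come from the sample titles. The authors deposited TPM in a table of 105129 transcript rows, each column summing to 1000000. The submitters' processing notes name Trimmomatic, HISAT2, kallisto and the build mm10, without their roles. TPM is a share of a library, so a change in abundant RNAs moves all other values, and read depth is unknown. Transcripts were summed to gene symbols. Genes reaching 1 TPM in 3 or more samples were kept, and log2(TPM + 1) was fitted with limma 3.58.1 in R 4.3.3 (4 group means over all 12 samples, intensity trend, Benjamini-Hochberg adjustment over 13158 genes, call at an adjusted p under 0.05). Log2 changes are on this scale and understate those of low genes. The same fit was made over transcripts. The labels number the mice 1 to 3 in each group without tying numbers across groups; p-values measure the spread between these mice. Coordinates, transcript types and lengths are from GENCODE M21 (GRCm38), in which 94.7% of the identifiers were found, and promoters from RefSeq. A length was known for 27 members and 90.4% of genes. All 32 members are described, and of the 41 further genes those with the 3 largest rises and falls among called genes are named. Members and lists were chosen with earlier results of these data known. The design also provided for counts, which were not used here because the values are TPM. Alternatives were median-ratio rescaling, no filter, a pseudocount of 0.1, no trend, the most abundant transcript, a replicate block, a length correction (loess, span 0.5) with and without that block, fitting only the groups compared, and leaving out each mouse; a fit with MI prednisone replicate 3 alone was added after the data were seen. The scripts were tested on simulated data.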

Additional observations from a re-analysis of the deposited data

Results flagged for a closer look

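The effect of prednisone in MI differed from its effect in sham by the interaction test (limma, adjusted p under 0.05) for 3 of the 32 fatty acid genes and for 7 of the 40 further genes tested. Of these, 3 and 6 were called lower, where 20.7% of all tested genes were called lower. Among the 32 the difference was -0.73 log2 units for Acsl1, -1.10 for Cpt1a and -0.66 for Acadm. For the further genes named by the rule it was -1.16 for Cd36, -0.97 for Acsl4, 0.71 for Ech1 and -0.90 for Acox3. The median of all genes was -0.48, and after rescaling only Ech1 of these named genes, at 1.26 (adjusted p = 0.0347), was still called.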

How the results depend on the processing

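Counts of the 32 genes called in MI against sham with vehicle (11 as reported) were 22 after rescaling, 6 without the intensity trend, 2 with the most abundant transcript, 5 with the replicate block, 0 with length correction and that block, 0 with only the groups compared, and 0 to 18 when 1 mouse was left out. With prednisone (17) they were 8 after rescaling, 5 with length correction, 3 with length correction and replicate block, 0 with MI prednisone replicate 3 alone, and 9 to 20 when 1 mouse was left out. For prednisone in MI (11) they were 7 without a filter, 7 with the replicate block, 4 with length correction, 2 with both, 2 with only the groups compared, 0 with replicate 3 alone, and 6 to 11 when 1 mouse was left out. For the interaction (3) they were 1 without a filter, 1 without the trend, 0 with length correction, 0 with that and the replicate block, 0 with replicate 3 alone, and 0 to 5 when 1 mouse was left out. These counts are of the 32 genes only and are not set beside the share of all genes called under each setting. They can move with the number of all genes called, so alone they show no change particular to the 32. Same-numbered mice had deviations correlated from -0.58 to 0.14, so the numbers were not taken to pair mice.

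For prednisone in MI, Crat turned to 0.16 (rescaled), 0.22 (length), 0.22 (length and replicate block) and 0.08 (most abundant transcript), Acadl to 0.20, 0.08 and 0.08 under the former 3, and Etfdh to 0.06, 0.05 and 0.05. The summed level of Acacb turned to 0.67 with length correction and 0.67 with the block as well. That sum was called higher under both (limma, adjusted p = 0.00784 and 0.0228). The most abundant Acacb transcript was at -1.88 in the fit over transcripts. With the most abundant transcript Ech1 turned to -0.02 and Acad12 to -0.20. Signs of values not called also turned elsewhere: in MI with vehicle Acad9 stood at -0.23 and Acaa1a at -0.22 after rescaling, in MI with prednisone Acacb stood at 0.12 with length correction, and the median interaction of the 32 genes stood at 0.44 after rescaling. The cause was not tested. Read depth is unknown, and 3 mice a group limit what could be called.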
